A study of Mus musculus with 2 samples.

Results

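The cells described here were the main natural killer T (NKT) cells of the mouse liver, namely the cells that the deposited annotation names nkt and places in cluster 0. They numbered 2389 of the 11929 annotated cells, with 403 of 4647 cells from TG mice and 1986 of 7282 cells from WT mice. No cell of cluster 0 carried another cell type name, and a further 43 TG and 246 WT cells named nkt lay in other clusters. TG mice bear the dnTGFβRII transgene, a human TGFBR2 construct that blocks TGF-β signalling and is placed behind mouse CD4 promoter sequence, and develop a liver disease that is studied as a counterpart of primary biliary cholangitis. The WT mice were the wild type controls. Both are on the C57BL/6 strain, were untreated, and are 10 weeks old per the labels, although the study's methods give a younger age. The CD45+ liver cells were captured in 2 libraries, each a pool of 2 genotypes, with IFN-γ ARE-Del-/- mice sharing the TG library and P40-/-IL-2Ra-/- mice sharing the WT library. The CD4 promoter restricts the transgene largely to T lineage cells. Only cells with a TG or WT genotype name were used, and with 1 library per genotype, genotype and library cannot be told apart.

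NKT cells are T cells that develop in the thymus and see lipids presented by CD1d through a semi-invariant T cell receptor, which in the mouse joins a fixed α chain built on the Traj18 segment to a small choice of β chain V segments. The transcription factor PLZF, encoded by Zbtb16, sets their innate-like programme, and they release IL-4 and IFN-γ within hours of stimulation. They are abundant in mouse liver, where they patrol the sinusoids and share NK receptors such as NK1.1 with NK cells. NKT1 cells (T-bet, IFN-γ), NKT2 cells (high PLZF, IL-4) and NKT17 cells (IL-17) are the usual functional classes.

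Cluster 0 gave 1559685 unique molecular identifiers (UMIs) in TG and 5767211 in WT mice, with a median of 3833 and 2838.5 UMIs per cell. UMIs were summed over the cells of a library and are given as CPM (counts scaled to a total of 1000000 UMIs per cell set), and ratios are on the log2 scale of CPM. Ranges in parentheses are 95% intervals and cover counting error only, not differences between mice. No test between cell types or genotypes was possible, since the clusters were built from these genes and each genotype is 1 library. Mature B cells, which should lack NKT transcripts, served as the reference for free RNA. Their level does not measure free RNA alone, since some transcripts, among them Gzma and Eomes in WT mice, were higher there than in cluster 0. The libraries differed in transcripts of other cell types. Cells with at least 2 UMIs of B cell or myeloid genes were 85.4% of TG and 26.9% of WT cluster 0 cells, and the 6 listed B cell genes summed to 1682 against 342 CPM, the 8 myeloid genes to 315 against 133 CPM and the 4 erythroid genes to 1.28 against 26.0 CPM. In TG cluster 0 cells 3 of the 8 myeloid genes and 3 of the 4 erythroid genes were at 0, and in WT cluster 0 cells, with more UMIs, none was. Cell barcodes shared between TG and WT cells numbered 36 among all annotated cells and 1 among cluster 0 cells.

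The sequences shown are the ends of β chain V segments used by mouse NKT receptors and the joining segment of the invariant α chain. Each is taken from the GENCODE transcripts of GRCm38 on the plus strand and is printed 5′ to 3′. For the last 60 bases of a V segment, capitals mark the bases from the codon of the conserved cysteine that opens the CDR3 loop, where the receptor meets its ligand. For Traj18, capitals mark the phenylalanine and glycine motif shared by joining segments. Trbv13-2 lies at chr6:41121396-41121832, Trbv29 at chr6:41271394-41271881, Trbv1 at chr6:40891229-40891885 and Traj18 at chr14:54200777-54200842.
Trbv13-2: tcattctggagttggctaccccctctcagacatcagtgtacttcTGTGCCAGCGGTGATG
Trbv29: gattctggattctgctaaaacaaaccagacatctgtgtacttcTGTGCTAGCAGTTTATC
Trbv1: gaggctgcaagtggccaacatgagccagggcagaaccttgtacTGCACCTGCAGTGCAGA
Traj18: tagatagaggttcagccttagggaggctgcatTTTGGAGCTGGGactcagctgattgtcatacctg

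In cluster 0 cells these β chain segments made up a larger share of the Trbv UMIs than in CD4 T and CD8αβ T cells. Trbv13-2 took 49 of 203 Trbv UMIs in TG cells, or 24.1% (18.4 to 30.6), and 70 of 308 in WT cells, or 22.7% (18.2 to 27.8), and ranked first in both libraries. In CD4 T cells it took 14.7% (8.30 to 23.5) in TG and 7.92% (3.48 to 15.0) in WT mice. Together Trbv13-2, Trbv29, Trbv1, Trbv13-1 and Trbv13-3 made up 50.7% (43.6 to 57.8) of Trbv UMIs in TG and 61.4% (55.7 to 66.8) in WT cluster 0 cells. The same 5 segments held 26.3% (17.8 to 36.4) and 23.8% (15.9 to 33.3) in CD4 T cells and 29.1% (24.6 to 34.0) and 30.2% (22.5 to 38.9) in CD8αβ T cells, so that the cluster 0 intervals lay above those of both other T cell sets in each library. The other cells named nkt had 56.3% (9 of 16 UMIs, 29.9 to 80.2) in TG and 62.1% (18 of 29, 42.3 to 79.3) in WT mice, so the share was much like that of cluster 0. In mature B cells, the reference for free RNA, Trbv13-2 took 1 of 16 Trbv UMIs in TG and 5 of 21 in WT mice. The 5 segments held 12.5% (1.55 to 38.3) and 38.1% (18.1 to 61.6) there, and the WT interval overlapped that of cluster 0. Within cluster 0 the TG and WT intervals of the summed share overlapped. Overlap does not show that the shares are equal, and no interval of their difference was computed. Trbv1 took 4.43% (2.05 to 8.25) in TG and 10.7% (7.49 to 14.7) in WT cells, whose intervals also overlapped. In TG mice Trbv1 alone was not higher in cluster 0, with 5.26% in CD4 T and 6.35% in CD8αβ T cells. In WT mice Trbv13-3 was at 2.92% in cluster 0, against 2.97% and 6.20% in those cells.

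**Figure D1:**
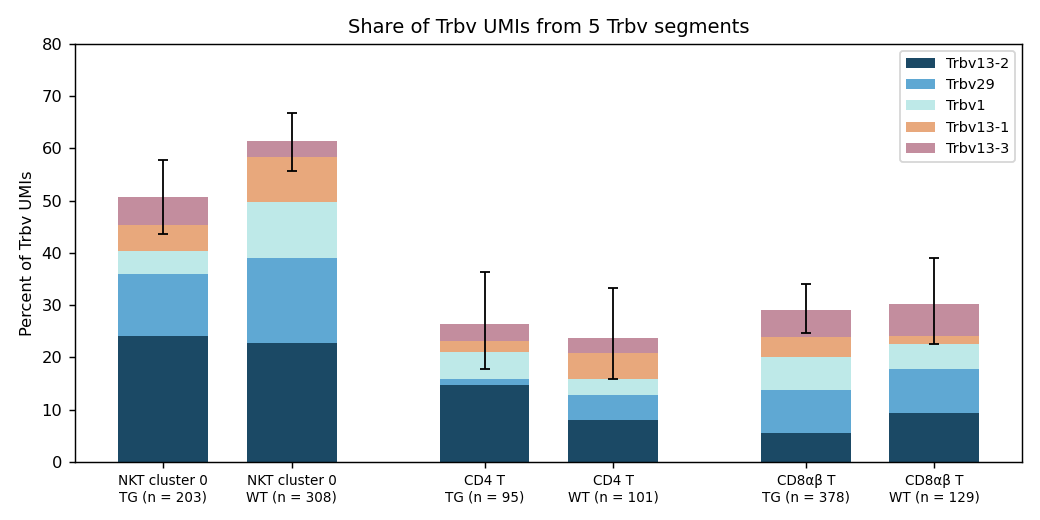
Share of Trbv UMIs (vertical axis, percent) from 5 β chain V segments in cluster 0 NKT, CD4 T and CD8αβ T cells of each library, with n the number of Trbv UMIs and error bars the exact 95% interval of the 5-segment sum. Cluster 0 reached 50.7% in TG and 61.4% in WT mice, while the other bars end between 23.8% and 30.2%.

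The α chain segment did not set cluster 0 apart at this depth. Traj18 had 3 of 31 Traj UMIs in TG cells, or 9.68% (2.04 to 25.8), and 16 of 98 in WT cells, or 16.3% (9.63 to 25.2). In CD4 T cells it had 1 of 22 and 9 of 63, and in mature B cells 3 of 9 and 4 of 30, and these shares overlapped in their counting intervals with those of cluster 0. Trav11d, the V segment column of the invariant chain that was examined, held 0 UMIs in either library. Whether a UMI came from the rearranged invariant chain cannot be told from these counts.

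The 5 marker genes checked the annotation. Zbtb16 stood at 42.3 CPM in TG mice and 104 CPM in WT mice, against 1.18 and 6.16 CPM in CD4 T cells and 1.19 and 4.45 CPM in mature B cells. Over NK cells, which held 22.3 and 9.96 CPM, its log2 ratio was 0.92 (0.37 to 1.48) in TG and 3.38 (2.67 to 4.20) in WT mice, so that it did not reach 2-fold in the TG library. Il4 stood at 48.7 CPM in TG mice and 90.5 CPM in WT mice, against 13 and 5.65 CPM in CD4 T cells. Hbegf, an EGF family growth factor, stood at 34.0 CPM in TG mice and 69.5 CPM in WT mice, against 2.37 and 5.65 CPM in CD4 T cells. In both libraries these transcripts were higher than in CD4 T cells, and their intervals did not overlap. Cap2, an actin regulator, was at 7.05 CPM in TG mice and 18.7 CPM in WT mice, with 0 UMIs in TG CD4 T cells, where 3 UMIs would be 3.55 CPM. Pak6, a p21-activated kinase, was at 44.9 CPM in TG mice and 39.5 CPM in WT mice, against 1.18 and 1.03 CPM in CD4 T cells. Among the clusters with at least 50 cells, cluster 0 held the highest level of all 5 markers in the TG library, out of 17 clusters, with Zbtb16 at 31.7 CPM in the next, cluster 3. In the WT library, out of 22 clusters, its rank was 1 for Hbegf, Cap2 and Pak6, 2 for Il4 and 3 for Zbtb16, where cluster 19 held 174.9 CPM of Zbtb16 and 116.6 CPM of Il4. Since the clusters were made from these data, the ranks describe the annotation and test nothing.

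T cell and NK cell defining genes were also read. The study named NKT cells by CD3 and NK1.1, CD4 T cells by CD3 and CD4, and NK cells by NK1.1. Differences in Cd3e, Klrb1c, Cd4 and their antibodies between these cell types therefore follow in part from the names and test nothing. Cd3e, a CD3 chain, was at 1409.9 CPM in TG mice and 1134 CPM in WT mice, and Trac, the receptor α constant region, at 1702 CPM in TG mice and 2301 CPM in WT mice. Tyrobp, the DAP12 adaptor of NK receptors, was at 66.7 CPM in TG mice and 25.8 CPM in WT mice, against 2650 and 2473 CPM in NK cells of cluster 8 and 75.3 and 59.8 CPM in mature B cells. Ncr1, the NK receptor NKp46, was at 6.41 CPM in TG mice and 1.39 CPM in WT mice, and Eomes, a T-box factor of NK cells, at 3.85 CPM in TG mice and 11.4 CPM in WT mice, both at or below 5.95 and 9.74 CPM and 5.06 and 23.9 CPM of mature B cells, except Ncr1 in TG mice. Cluster 0 thus held T cell receptor transcripts, while the NK defining genes Ncr1 and Eomes stood below the level of mature B cells or, for Ncr1 in TG mice, close to it.

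**Figure D2:**
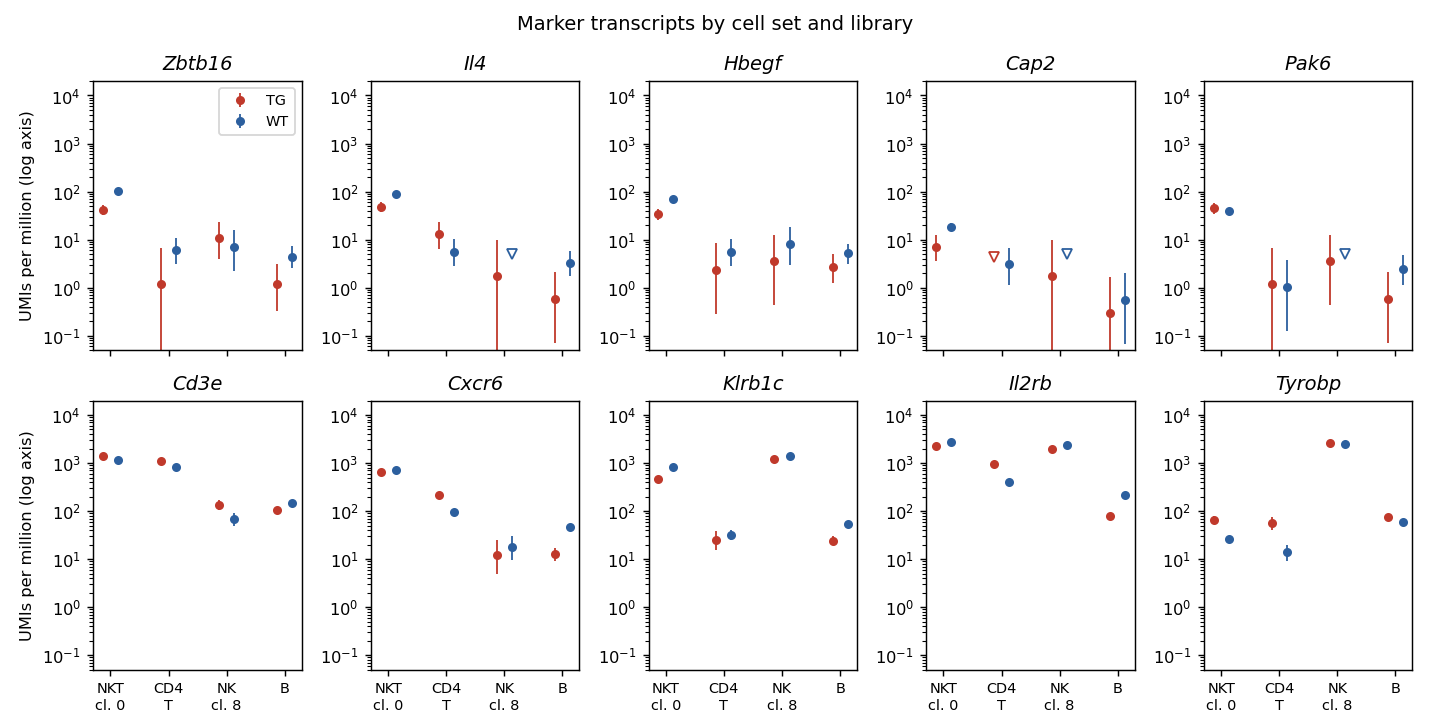
Level of 10 transcripts (vertical axis, CPM on a log axis) in cluster 0 NKT, CD4 T, NK cluster 8 and mature B cells, with TG in red and WT in blue, bars the exact 95% Poisson interval and open triangles the upper limit where no UMI was found. Zbtb16, Il4, Hbegf, Cap2 and Pak6 are highest in cluster 0 NKT cells, which share Cd3e with CD4 T cells and Klrb1c and Il2rb with NK cells, while Tyrobp reaches 2650 and 2473 CPM in NK cluster 8 and is far lower in the other sets.

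Of the NKT classes, cluster 0 held the defining transcripts of NKT1 cells together with Il4 and Gata3, and little Il17a. Tbx21, which encodes T-bet, was at 183 CPM in TG mice and 189.9 CPM in WT mice, and Ifng at 263 CPM in TG mice and 332 CPM in WT mice. After each cell was thinned to 1000 UMIs, an Ifng UMI was seen in 21.1% (17.2 to 25.4) of TG and 24.2% (22.3 to 26.2) of WT cells and an Il4 UMI in 4.47% (2.67 to 6.97) of TG and 9.16% (7.93 to 10.5) of WT cells, while mature B cells showed Ifng in 1.31% (0.718 to 2.19) of TG and 1.27% (0.767 to 1.98) of WT cells and Il4 in 0% (0 to 0.345) of TG and 0.201% (0.0414 to 0.586) of WT cells. Before thinning, the cluster 0 shares were 48.1% and 48.1% for Ifng and 13.6% and 21.2% for Il4. Gata3, a factor shared with NKT2 cells, was at 289 CPM in TG mice and 297 CPM in WT mice. Il17a, the NKT17 cytokine, had 0 UMIs in TG and 1 UMI in WT cells, and Il13 had 0 and 7. Both transcripts were at or close to the limit of what this depth can show, with 3 UMIs equal to 1.92 CPM for Il17a in TG and 0.520 CPM in WT cells. A value of 0 may also come from the authors' filter, which set genes seen in under 10 cells of a genotype to 0.

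Against CD4 T cells, most measured NK receptor genes were higher in cluster 0 cells and most naive T cell genes lower, while homing genes went both ways. Of 6324 genes with at least 50 UMIs over each pair of profiles, 177 (2.8%) were at least 2-fold higher and 94 (1.49%) at least 2-fold lower in both libraries. Among the 16 measured NK receptor and adaptor genes, 10 were higher and 1, Klrg1, was lower, with median log2 ratios of 1.86 in TG and 2.31 in WT mice against 0.06 and 0.12 over all genes. Klrb1c, which encodes NK1.1, was at 469 CPM in TG mice and 826 CPM in WT mice in cluster 0 and 24.9 and 32.4 CPM in CD4 T cells, a log2 ratio of 4.24 (3.61 to 4.94) in TG and 4.67 (4.32 to 5.06) in WT mice. Cd160, an Ig-like receptor, had log2 ratios of 3.28 and 3.91 in TG and WT mice, Klrk1 (NKG2D) 2.88 and 2.95, and Klrd1 (CD94) 2.59 and 2.54. All 4 receptors were far above CD4 T cells in both libraries. Klrg1, an inhibitory receptor of differentiated T and NK cells, was at 50 CPM in TG mice and 6.94 CPM in WT mice in cluster 0 and 231 and 49.3 CPM in CD4 T cells.

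NKT1 genes followed the same direction, with 9 of 19 higher and 0 lower. Xcl1, a chemokine that draws cross-presenting dendritic cells, was at 254 CPM in TG mice and 352 CPM in WT mice in cluster 0 and 24.9 and 12.3 CPM in CD4 T cells, a log2 ratio of 3.35 (2.72 to 4.06) in TG and 4.83 (4.26 to 5.48) in WT mice. Il2rb, the IL-2 and IL-15 receptor β chain, was at 2317 CPM in TG mice and 2759 CPM in WT mice and had log2 ratios of 1.26 and 2.79. Il12rb2 (IL-12 receptor) had 1.74 and 4.20, Fasl 3.02 and 2.2, and, among 10 cytotoxic granule genes of which 3 were higher and 0 lower, Nkg7 and Prf1 1.28 and 2.14 and 1.44 and 1.13. For Il2rb, Il12rb2 and Xcl1 the ratio was smaller in TG mice, where the CD4 T cells themselves held more of each transcript. Of 11 NKT2 genes 2 were higher, Il4 and Plac8, and 2 lower, Il6ra and Stmn1. Of 14 listed NKT17 genes only 2 had enough UMIs, of which 1, Tmem176b, was higher and 0 lower. Beyond the lists, the highest ratios included Mmp9, a matrix metalloproteinase, at 3.95 and 3.63, and Nedd4, a ubiquitin ligase, at 3.54 and 3.76. Constant regions of the γδ T cell receptor were also higher, with Tcrg-C2 at 241 CPM in TG mice and 289 CPM in WT mice, log2 ratios of 2.97 and 3.71, and Trdc at 51.9 CPM in TG mice and 59.3 CPM in WT mice, log2 ratios of 1.55 and 2.15. The Trdc ratio in the TG library was -1.37 without the cells holding B cell or myeloid UMIs, which left 59 cluster 0 and 38 CD4 T cells. The 3 measured CD8 and γδ T cell marker genes summed to 151 CPM in TG and 101 CPM in WT cluster 0 cells, none at 0, against 174 and 141 CPM in CD4 T cells, and their part in these ratios was not tested.

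Homing genes were divided, with 6 of 24 higher and 4 lower. Cxcr6, the receptor that holds NKT cells in the sinusoids, was at 641 CPM in TG mice and 724 CPM in WT mice in cluster 0 and 212 and 97.1 CPM in CD4 T cells. Ccr9, a receptor for CCL25, was at 308 CPM in TG mice and 199 CPM in WT mice and 56.8 and 13.9 CPM, and Itga1 (CD49a), a collagen-binding integrin of tissue-resident cells, at 217 CPM in TG mice and 115 CPM in WT mice and 65.1 and 17.5 CPM. These 3 were higher in cluster 0 of both libraries. S1pr1, the receptor for exit from tissue, was at 19.2 CPM in TG mice and 12.7 CPM in WT mice in cluster 0 and 254 and 284 CPM in CD4 T cells, a log2 ratio of -3.73 (-4.33 to -3.17) in TG and -4.49 (-4.86 to -4.13) in WT mice. Ccr7, which guides cells to lymph nodes, had log2 ratios of -3.54 and -5.15, and Klf2, the factor that drives S1pr1, -1.84 and -2.04. Of 7 naive T cell genes 5 were lower and 0 higher, Tcf7 at -1.53 and -2.77 among them. Outside the lists, Actn1 (α-actinin) had -3.87 and -5.63 and Vim (vimentin) -3.23 and -3.57. The regulatory T cell genes Foxp3 and Ctla4 were low in cluster 0, with Foxp3 at 0.641 CPM in TG mice and 0.867 CPM in WT mice and Ctla4 at 7.69 CPM in TG mice and 11.3 CPM in WT mice, against 214 and 119 CPM and 117 and 81.2 CPM in CD4 T cells.

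Against NK cells, cluster 0 cells held fewer transcripts of NK receptors and granules. Of 7466 genes, 140 (1.88%) were at least 2-fold higher and 225 (3.01%) at least 2-fold lower in both libraries. Against NK cluster 8 alone the balance turned, with 262 genes higher and 194 lower. Of 8 tested invariant receptor and CD3 genes 3 were higher, Trbv13-2, Trac and Trbc2, and 0 lower, with median log2 ratios of 0.51 in TG and 2.42 in WT mice against 0.03 and -0.04 over the 7466 genes. TG cells named nk carried T cell transcripts, with Cd3e at 1158 and 97.8 CPM in TG and WT cells named nk and 133 and 67.5 CPM in NK cluster 8, so that T cell genes such as Cd3e had log2 ratios of 0.28 and 3.54 over all NK cells. Ccr9 had a log2 ratio of 4.37 (3.87 to 4.92) in TG and 4.23 (3.55 to 5.02) in WT mice. Il2ra, the high-affinity IL-2 receptor chain, was at 98.1 CPM in TG mice and 136 CPM in WT mice in cluster 0 and 4.82 and 12.5 CPM in NK cells. Ly6a (Sca-1) had log2 ratios of 3.89 and 4.25, and Il4, with 1 TG and 2 WT UMIs in NK cells, 6.80 (4.28 to 12.12) in TG and 6.18 (4.32 to 9.23) in WT mice. All 4 were far above NK cells in both libraries. The T cell receptor regulators Cd5, Cd6 and Themis had 2.73 and 3.19, 3.17 and 3.45, and 4.08 and 2.72, and the costimulatory receptor Icos 3.15 and 2.53. Of 13 checkpoint and costimulatory receptor genes 5 were higher, Btla, Cd28, Icos, Cd5 and Cd6, and 3 lower, Lag3, Tigit and Tnfrsf9. Of 9 measured NKT2 genes 6 were higher than in NK cells and 1 lower, while of 19 NKT1 genes 0 were higher and 7 lower.

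The NK side was lower across its families. Of 26 NK receptor and adaptor genes 20 were lower and 0 higher, and of 11 cytotoxic granule genes 7 were lower and 0 higher. Tyrobp had a log2 ratio of -4.54 (-4.84 to -4.26) in TG and -6.48 (-6.73 to -6.24) in WT mice, and Fcer1g, the adaptor of Fc and NK receptors, had -3.68 (-3.89 to -3.48) in TG and -5.84 (-6.03 to -5.66) in WT mice. Gzma, granzyme A, was at 421 CPM in TG mice and 25.8 CPM in WT mice in cluster 0 and 11594 and 8249 CPM in NK cells, with mature B cells at 423 and 189 CPM. In TG mice the Gzma level of cluster 0 thus equalled that of mature B cells, and in WT mice it was lower. Gzmb, granzyme B, was present in cluster 0 at 505 CPM in TG mice and 449.8 CPM in WT mice, against 2389.7 and 2748 CPM in NK cells and 104 and 88.8 CPM in mature B cells. The chemokines Ccl3, Ccl4 and Ccl5 were all lower, with Ccl5 at 3447 CPM in TG mice and 2102 CPM in WT mice and 22156 and 12427 CPM in NK cells. Itgax (CD11c), Klra7 (Ly49G) and the zinc finger factor Zeb2 had log2 ratios of -4.95 and -6.88, -4.88 and -5.28, and -4.03 and -4.66. Klrb1c, Xcl1 and Tbx21 were within 2-fold of NK cells in at least 1 library.

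**Figure D3:**
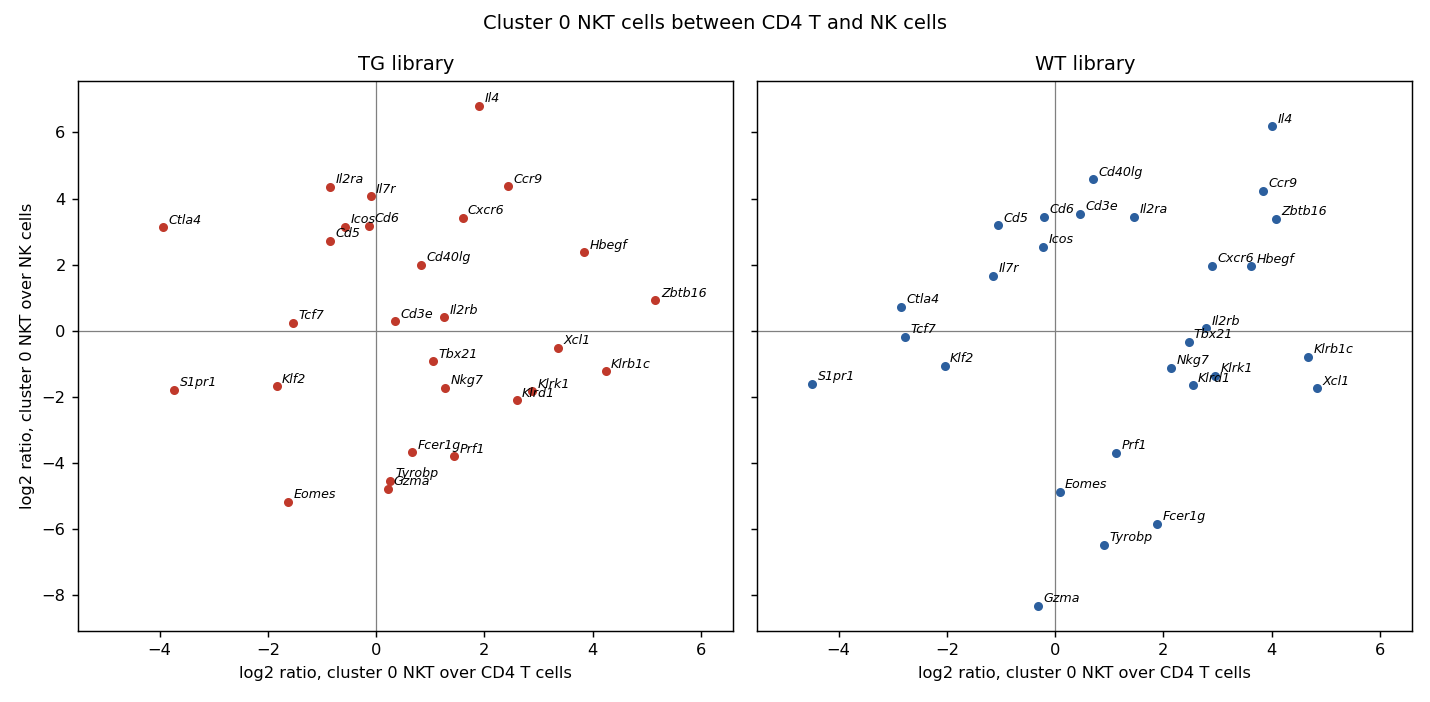
Log2 ratio of CPM of cluster 0 NKT cells over CD4 T cells (horizontal axis) and over NK cells (vertical axis) for named genes, with the TG library at left and the WT library at right. Il4, Hbegf, Cxcr6, Ccr9 and Zbtb16 lie above both cell types, Klrb1c and Xcl1 lie right of CD4 T cells and below NK cells, and Cd5, Cd6 and Icos lie above NK cells and close to or left of CD4 T cells.

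Surface proteins were read through 49 antibodies and are given as the median centred log ratio (natural log) of a cell set. Cluster 0 exceeded CD4 T cells by at least 0.5 in both libraries for 2 antibodies. CD49a was at 2.61 in TG and 1.99 in WT mice, against 0.679 and 0.338 on CD4 T cells, and NK1.1 at 1.33 in TG and 1.07 in WT mice, against 0.723 and 0.407. The 2 antibodies lower than on CD4 T cells were TCRβ, at 1.92 in TG and 1.64 in WT mice against 2.62 and 3.03, and CD5, at 3.09 in TG and 3.10 in WT mice against 3.67 and 3.86. The TCRβ value, which is relative to the other antibodies of a cell, was thus lower on cluster 0 than on CD4 T cells in both libraries. Trac transcripts were higher by 0.40 and 0.52 (log2). CD44, a marker of antigen experience, was at 3.83 in TG and 3.60 in WT mice, with quartiles of 3.64 to 4.01 and 3.41 to 3.76. CD69, an early activation and retention marker, was at 0.402 in TG and 0.608 in WT mice, against 0.163 and 0.282 on CD4 T cells. Against NK cells, 6 antibodies were higher in both libraries, namely CD4, CD5, CD90.2, CD44, TCRβ and CD357 (GITR), and 2 were lower, the integrins CD49b and CD49d.

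In TG mice the share of cluster 0 among CD45+ liver cells was smaller. Cells of cluster 0 were 8.67% (7.88 to 9.52) of all annotated TG cells and 27.3% (26.3 to 28.3) of WT cells, a difference of -18.6 percentage points (-19.9 to -17.3). Among T, NKT and NK cells they were 13.9% (12.7 to 15.3) in TG and 41.5% (40.1 to 42.9) in WT mice. Among cells named nkt or cd4 they were 58.9% (55.1 to 62.6) and 67.0% (65.2 to 68.7). Within the cells named nkt the share of cluster 0 was 90.4% (87.2 to 92.9) and 89.0% (87.6 to 90.2), a difference of 1.38 percentage points (-1.95 to 4.15). The size of the difference in share therefore depended on the cells in the denominator, and a share cannot tell fewer NKT cells from more of the other cells.

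Between the genotypes, 179 of 8604 genes (2.08%) were at least 2-fold higher and 125 (1.45%) at least 2-fold lower in TG than in WT cluster 0 cells. All 179 higher genes had a counting interval above 0 and 61 had one wholly past 2-fold. Of the 125 lower genes, 105 had an interval below 0 and 14 had one wholly past 2-fold. Since TG cells gave fewer UMIs than WT cells, the minimum UMIs and the 2-fold cut already place the interval of any higher gene above 0. They do not place that of every lower gene below 0. These interval counts therefore cannot tell whether the higher genes are better supported than the lower ones. With cells thinned to 1000 UMIs, 101 were higher (46 of them shared) and 163 lower (25 shared), and without the cells holding B cell or myeloid UMIs, which left 59 TG cells, 379 were higher (60 shared) and 859 lower (53 shared). Both settings left far fewer TG UMIs, and a gene without a TG UMI counted as lower. The balance of higher and lower genes under them therefore cannot be set against the main counts. At least 2-fold higher also in TG CD4 T cells were 82 of the 179 genes, in NK cluster 8 cells 52, and in mature B cells 30, where 5.71%, 5.54% and 1.07% of all 8604 genes were, with no minimum UMIs in those sets, and 54 stood at or under the level of TG mature B cells. Of the 125 lower genes, 31 were also at least 2-fold lower in CD4 T cells, 40 in NK cluster 8 and 30 in mature B cells, where 3.52%, 7.64% and 3.32% of all 8604 genes were, and 42 had a WT level at or under that of WT mature B cells. The share of all 8604 genes at or under the mature B cell level was not taken. The 54 and 42 genes therefore cannot be read as a trait of the called genes. The part of free RNA in the ratios was not tested, and the ratio in 1 or more of those cell sets is given beside many of the genes.

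Of the 5 marker genes, Zbtb16, Hbegf and Cap2 were at least 2-fold lower in TG cluster 0 cells, Il4 was lower by less than 2-fold, and the interval of Pak6 included 0. Zbtb16 had a log2 TG over WT ratio of -1.30 (-1.69 to -0.93), and its share of cells with a UMI, thinned to 1000 UMIs, was 4.71% (2.86 to 7.26) of TG and 8.86% (7.65 to 10.2) of WT cells. Il4 had a ratio of -0.89 (-1.26 to -0.54), Hbegf -1.03 (-1.47 to -0.62) and Cap2 -1.41 (-2.45 to -0.51). In TG cells the 3 cells with most UMIs held 39.6% of the Hbegf and 54.5% of the Cap2 UMIs. Pak6 had 0.18 (-0.22 to 0.58). Leaving out cells with 2 or more B cell or myeloid UMIs, which kept 59 TG and 1451 WT cells, gave a ratio of -1.76 for Zbtb16 and -0.92 for Il4, and thinning gave -0.89 and -1.14. With thinning Cap2 was at -0.97, so that Zbtb16 and Cap2 fell short of 2-fold there. In CD4 T cells the Zbtb16 ratio was -2.38 and the Il4 ratio 1.2, and in mature B cells they were -1.90 and -2.49, from few UMIs in each. Without the cells holding B cell or myeloid UMIs, Pak6 was at -0.90. Ratios under that setting, here and below, have no interval, and for genes at a low level they rest on few TG UMIs.

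Other genes of NKT identity were mixed. Ramp1, a subunit of the receptor for the neuropeptide CGRP, was at 18.6 CPM in TG mice and 46.5 CPM in WT mice, a ratio of -1.32 (-1.93 to -0.77), with -1.73 in CD4 T cells and -0.75, within 2-fold, when thinned. Il17rb, the IL-25 receptor, was at 2.56 CPM in TG mice and 13.2 CPM in WT mice. Of the 21 NKT lineage genes measured, 2 were higher, Slamf1 and Maf, and 2 lower, Zbtb16 and Eomes. Eomes, at 3.85 CPM in TG mice and 11.4 CPM in WT mice, lay under the 5.06 and 23.9 CPM of mature B cells, where its ratio was -2.24, and over all cells named nkt its ratio of -1.57 (-3.07 to -0.37) became 0.10. Slamf1, a SLAM family receptor that signals in NKT cell development, was at 93.6 CPM in TG mice and 32.8 CPM in WT mice, a ratio of 1.51 (1.19 to 1.83), with 0.80 in CD4 T cells and 0.21 in mature B cells. Maf, a factor of cytokine-producing T cells, was at 683 CPM in TG mice and 320.4 CPM in WT mice, a ratio of 1.09 (0.98 to 1.2), with 0.92 in CD4 T cells. Tbx21 had -0.05 (-0.24 to 0.14) and Gata3 -0.04 (-0.19 to 0.11), both with intervals across 0. Of 19 NKT1 genes 1 was higher, Gzma, and 0 were lower. Ifng had -0.34 (-0.49 to -0.18) and Cxcr6 -0.18 (-0.28 to -0.08), both within 2-fold.

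CD4 differed in both transcript and protein, and its antibody had the largest TG minus WT difference of the 49, at 1.2. Cd4 transcripts were at 641 CPM in TG mice and 161 CPM in WT mice in cluster 0, a log2 ratio of 2.0 (1.87 to 2.13), against 816 and 519.8 CPM in CD4 T cells, 122 and 13.8 CPM in NK cluster 8 and 25.3 and 37.0 CPM in mature B cells. The ratio was 0.65 in CD4 T cells, 3.15 in NK cluster 8 and -0.55 in mature B cells. A Cd4 UMI was seen in 45.7% (40.7 to 50.7) of TG and 14.7% (13.1 to 16.3) of WT cells after thinning, against 1.5% (0.859 to 2.42) of TG and 1.87% (1.25 to 2.70) of WT cells in mature B cells, and in 75.4% and 30.8% of TG and WT cluster 0 cells before thinning. The CD4 antibody had a median of 3.30 in TG and 2.10 in WT mice on cluster 0, with quartiles of 2.66 to 3.82 and 1.24 to 2.59, against 3.71 and 3.50 on CD4 T cells, 1.12 and 0.590 on NK cluster 8 and 0.804 and 0.351 on mature B cells. Cells above the 95th percentile of mature B cells of their library were 382 of 403 TG cells, or 94.8% (92.1 to 96.7), and 1286 of 1986 WT cells, or 64.8% (62.6 to 66.9). This threshold was 1.46 in TG and 1.70 in WT mice, and so stricter in WT mice. With the 95th percentile of NK cluster 8 as threshold, at 1.80 and 1.39, the shares were 90.8% (87.6 to 93.5) and 72.1% (70.1 to 74.1). The transgene uses the mouse CD4 promoter, and whether this bears on the Cd4 values was not tested.

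**Figure D4:**
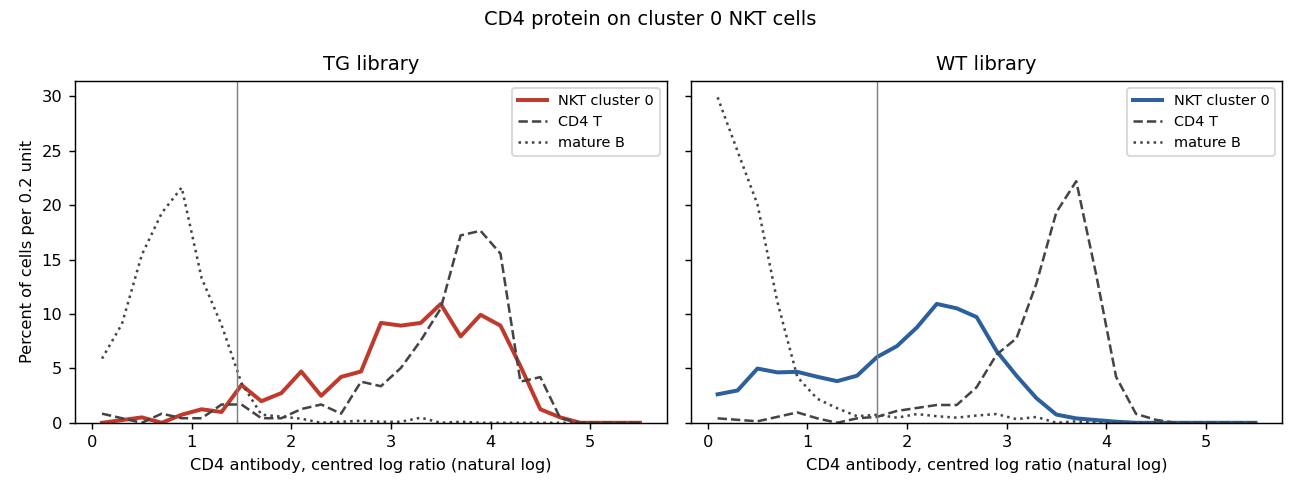
Distribution of the CD4 antibody value (horizontal axis, centred log ratio in natural log units; vertical axis, percent of cells per 0.2 unit) on cluster 0 NKT cells (coloured), CD4 T cells (dashed) and mature B cells (dotted) of each library, with the grey line at the 95th percentile of mature B cells. In WT mice cluster 0 spans both sides of the line, with 64.8% of cells above it, while in TG mice 94.8% lie above it.

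Liver NKT cells of the mouse comprise CD4+ and double negative cells, and the WT library held enough of both to compare them. In 1286 CD4 positive and 700 CD4 negative WT cells, split by the B cell threshold, Cd4 transcripts were at 220.2 against 42.4 CPM, a log2 ratio of 2.38 (2.05 to 2.72). Of 8158 genes with at least 50 UMIs, 25 (0.306%) were at least 2-fold higher and 20 (0.245%) at least 2-fold lower in the CD4 positive cells. Of 20 measured NK receptor and adaptor genes 7 were at least 2-fold lower and 0 higher, and 18 had a ratio below 0, with a median of -0.75 against -0.01 over all genes. Klra3, at a ratio of 0.35, and Klrd1, at -0.20, were among those within 2-fold. Klra5 (Ly49E) was at 5.74 against 29.0 CPM, a log2 ratio of -2.34 (-3.12 to -1.60), and Klra1 (Ly49A) at 30.8 against 68.3 CPM, a log2 ratio of -1.15 (-1.52 to -0.78). Fcer1g was at 26.6 against 77.1 CPM, a log2 ratio of -1.53 (-1.91 to -1.16). Klrc1 (NKG2A), just within 2-fold, was at 166 against 325 CPM, a log2 ratio of -0.97 (-1.13 to -0.81), and Cd7 at 152 against 308 CPM, a log2 ratio of -1.02 (-1.19 to -0.85). Both sides of the split held NK1.1 transcripts alike, with Klrb1c at 834 against 809 CPM, a log2 ratio of 0.04 (-0.04 to 0.13). Higher in the CD4 positive cells were Il17rb, at 16.2 against 7.24 CPM, a log2 ratio of 1.16 (0.31 to 2.11), and Cap2, at 23.0 against 10.3 CPM, a log2 ratio of 1.15 (0.44 to 1.93). Ccr9, within 2-fold, was at 232 against 134 CPM, a log2 ratio of 0.79 (0.59 to 1.00). For Zbtb16 and Il4 the intervals included 0, at 108 against 96.7 CPM, a log2 ratio of 0.16 (-0.10 to 0.41), and 96.0 against 79.6 CPM, a log2 ratio of 0.27 (-0.01 to 0.55). The Klra genes are near-identical copies, so reads may be split among them. With 21 CD4 negative TG cells, the same split was not read in TG mice.

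The genotype ratios were also computed in CD4 positive cells alone. Between CD4 positive TG and WT cells, Cd4 had a log2 ratio of 1.61, Zbtb16 -1.34, Il4 -0.93 and Itga4 1.91. Ramp1 had -1.30 and Slamf1 1.52. Except for Cd4, whose ratio was smaller, these ratios were about as large within the CD4 positive cells as over all of cluster 0. Since 382 of the 403 TG cells were CD4 positive, the TG profile hardly changed. Whether the share of CD4 positive cells bears on the ratios was not tested.

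Of 23 homing and residency genes 1 was higher in TG cluster 0 cells, Itga4, and 1 lower, Rgs2. Itga4, which encodes CD49d, was at 312 CPM in TG mice and 96.4 CPM in WT mice, a ratio of 1.69 (1.51 to 1.87), with -0.02 in CD4 T cells, 0.18 in NK cluster 8 and -0.12 in mature B cells, whose level was 411 and 446 CPM. The CD49d antibody was at 1.72 in TG and 0.738 in WT mice on cluster 0, with quartiles of 1.21 to 2.23 and 0.503 to 1.04, and at 2.06 and 2.07 on mature B cells. The antibody difference, TG minus WT, was 0.979 on cluster 0, 1.03 on NK cluster 8, 1.42 on all NK cells and 0.365 on CD4 T cells. The transcript and the protein of this integrin were thus both higher in TG cluster 0 cells, and the protein was higher by as much on TG NK cells. CD49a and CD49b were the other 2 of the 4 antibodies higher by at least 0.5 beside CD4 and CD49d, at 2.61 in TG and 1.99 in WT mice and 1.21 in TG and 0.548 in WT mice, and no antibody was lower by 0.5. By share of antibody counts in place of the centred ratio, 3 antibodies were higher, without CD49a, and 16 were lower. CD49b differed by 0.663 on cluster 0, 1.12 on CD4 T cells and 0.780 on all NK cells, with 0.462 on NK cluster 8. CD49a differed by 0.624 on cluster 0, 0.341 on CD4 T cells, 0.240 on NK cluster 8 and 1.28 on all NK cells, whose TG cells carried T cell transcripts. Itga1 transcripts had a ratio of 0.91 (0.71 to 1.10).

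Chst2, a sulfotransferase of carbohydrate ligands, was at 178 CPM in TG mice and 17.0 CPM in WT mice, a ratio of 3.39 (3.05 to 3.73), with 8.33 and 9.74 CPM in mature B cells and a ratio of 1.18 in CD4 T cells. Csf1, the macrophage growth factor M-CSF, was at 62.8 CPM in TG mice and 6.59 CPM in WT mice, a ratio of 3.25 (2.70 to 3.83), with 2.2 in CD4 T cells, and 24.5% of its TG UMIs lay in 3 cells. Ccr4, a chemokine receptor of skin and lung homing T cells, was at 31.4 CPM in TG mice and 5.03 CPM in WT mice, a ratio of 2.64 (1.95 to 3.36), and in CD4 T cells it was -0.14. Lilr4b, an Ig-like receptor with a near-identical neighbour that may share its reads, had 2.43 (2.09 to 2.78), with 1.60 in CD4 T cells and -0.27 in mature B cells. For Chst2, Ccr4 and Lilr4b the TG level of cluster 0 lay above that of TG mature B cells by more than 2-fold. Il2 was at 21.8 CPM in TG mice and 7.11 CPM in WT mice, a ratio of 1.62 (0.92 to 2.31), and Tnf, below 2-fold, at 0.81 (0.55 to 1.06). Of 11 cytokine and growth factor genes 2 were higher, Il2 and Csf1, and 2 lower, Hbegf and Lta. Lta, at -1.2 (-2.71 to 0.02), was within 2-fold when thinned, at -0.61, and Hbegf was at -2.01 without the cells holding B cell or myeloid UMIs.

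Several of the largest ratios belonged to genes that TG mature B cells held at a like or higher level. Gzma had 4.03 (3.77 to 4.29), with 421 CPM in TG cluster 0 and 423 CPM in TG mature B cells, and 26.8% of its UMIs in 3 cells. Igkc, an immunoglobulin light chain, had 3.39 (3.27 to 3.51), with 50.4% of its UMIs in 3 cells. Casp1 (caspase-1) had 3.13 (2.62 to 3.66), with 69.9 CPM in TG cluster 0 and 80.4 CPM in TG mature B cells. Klrg1 had 2.85 (2.28 to 3.44), with 2.11 in mature B cells, and its TG level of 50 CPM was above the 24.1 CPM of mature B cells, while the ratio was 1.89 without the cells holding B cell or myeloid UMIs. The B cell genes Cd79a and Igkc were higher, as were 3 of 5 measured myeloid genes, Csf1r, S100a8 and S100a9.

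The TGF-β pathway was examined for its receptor. Tgfbr2, the mouse counterpart of the receptor in the transgene, was at 421 CPM in TG mice and 152 CPM in WT mice in cluster 0, a ratio of 1.47 (1.32 to 1.62), with 0.77 in CD4 T cells, 1.63 in NK cluster 8 and -0.09 in mature B cells. Of 12 measured pathway genes 1 was higher, Tgfbr2, and 0 lower. Reads of the human transgene could have been assigned to Tgfbr2, which was not tested. Smad7, an inhibitor that TGF-β induces, had -0.35 (-0.61 to -0.09), with -1.18 in CD4 T cells and -0.98 in NK cluster 8. Skil and Tgif1, both repressors of SMAD targets, had -0.06 (-0.45 to 0.31) and -0.74 (-1.31 to -0.21). Tgif1 was past 2-fold at -1.2 when thinned and at -2.66 without the cells holding B cell or myeloid UMIs.

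Genes of the immediate early and NF-κB list were lower on balance. Of 30 immediate early and NF-κB genes, 0 were at least 2-fold higher and 4 lower, namely Nr4a1, Nr4a2, Dusp5 and Tnfaip3, and 24 had a ratio below 0, with a median of -0.37 against 0.02 over all genes. Nr4a1 (Nur77), a reporter gene of receptor signalling, was at 101 CPM in TG mice and 240 CPM in WT mice, a ratio of -1.25 (-1.5 to -1.01), with -0.62 in CD4 T cells, -0.29 in NK cluster 8 and -0.92 in mature B cells. Tnfaip3 (A20), an NF-κB inhibitor, had -1.04 (-1.19 to -0.90), with -0.90, -1.02 and -1.12 in CD4 T, NK cluster 8 and mature B cells. Dusp5, a phosphatase of ERK, had -1.2 (-1.36 to -1.04), with -0.47, -0.59 and -1.44 in the same sets. The same sign was seen in all 3 other cell sets. Tnfaip3 was within 2-fold when thinned, at -0.93, and Dusp5 just within it without the cells holding B cell or myeloid UMIs, at -0.997. Outside the list, Maff, a small MAF factor, was at 23.7 CPM in TG mice and 95.2 CPM in WT mice, a ratio of -2.0 (-2.53 to -1.52), with -1.21 in CD4 T cells. Ly6c1 and Nt5e (CD73) had -2.16 (-2.79 to -1.59) and -2.02 (-3.05 to -1.14), with -1.77 and -0.73 in CD4 T cells. Without the cells holding B cell or myeloid UMIs, Ly6c1 was at -0.89, within 2-fold.

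NK receptor genes were divided between the genotypes, with 6 of 22 higher and 1 lower and a median of -0.20. The median was 0.08 in CD4 positive cells alone and 0.05, over the 19 genes left, without the cells holding B cell or myeloid UMIs. Klrb1c had -0.82 (-0.93 to -0.70) and Klrd1 -0.90 (-1.07 to -0.73). The NK1.1 antibody was at 1.33 in TG and 1.07 in WT mice, a difference of 0.263. That antibody was also higher in TG mice on CD4 T cells by 0.316, on NK cluster 8 by 0.378 and on mature B cells by 0.178. The higher genes included Tyrobp and Fcer1g, at 1.37 (0.99 to 1.74) and 1.67 (1.4 to 1.94), with 2.0 and 2.89 in CD4 T cells. The interferon-stimulated genes had 3 of 27 at least 2-fold higher, against 2.08% of all genes, 0 lower and 25 above 0. Their median was 0.45 against 0.02 over all genes, and 0.23 over all cells named nkt. The list summed to 4802 CPM in TG and 3485 CPM in WT cluster 0 cells. The sums were 5373 and 3348 CPM in CD4 T cells, 2809 and 2624 CPM in NK cluster 8 and 3357 and 2149 CPM in mature B cells. Iigp1, an interferon-inducible GTPase, was at 48.1 CPM in TG mice and 10.9 CPM in WT mice, a ratio of 2.14 (1.64 to 2.64), with 3.32 in mature B cells, and Isg15 at 52.6 CPM in TG mice and 54.8 CPM in WT mice. Ifit3 had 1.03 (0.28 to 1.75), and -0.61 without the cells holding B cell or myeloid UMIs, a value from 59 TG cells and without an interval. Of 13 glycolysis genes none was past 2-fold in either direction.

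Among 15 checkpoint and costimulatory receptors, 3 were higher and 1, Nt5e, was lower. Tnfrsf4 (OX40) was at 23.1 CPM in TG mice and 6.24 CPM in WT mice, a ratio of 1.89 (1.18 to 2.59), with 2.36 in CD4 T cells. Tnfrsf9 (4-1BB) had 1.35 (0.66 to 2.02), with 3.53 in CD4 T cells. Tigit, an inhibitory receptor, had 1.19 (0.33 to 2.02), with 1.03 in CD4 T cells, and 0.72, within 2-fold, without the cells holding B cell or myeloid UMIs. These differences were in transcripts. The CD137 antibody against the Tnfrsf9 product had medians of 0.727 in TG and 0.824 in WT cluster 0 cells and differed by -0.0677 on CD4 T cells, and the TIGIT antibody had medians of 0 in both libraries. Of 8 cell cycle genes 2 were higher, with Top2a (topoisomerase II) at 41.7 CPM in TG mice and 14.2 CPM in WT mice, a ratio of 1.55 (1.06 to 2.04), and Mki67 at 1.04 (0.40 to 1.66), and in mature B cells their ratios were 0.48 and 1.13. Gzmk, granzyme K, had 1.62 (0.97 to 2.26), with -0.28 in CD4 T cells and -1.60 in mature B cells. Pmaip1, the pro-apoptotic BCL-2 family member Noxa, was at 23.1 CPM in TG mice and 3.12 CPM in WT mice, against 75.6 and 63.7 CPM in mature B cells. By rank among genes with at least 100 UMIs, the 10 highest ratios were those of Gzma, Igha, Igkc, Chst2, Csf1, Casp1, Klrg1, Fam213a, Lilr4b and Ifitm2, and the 10 lowest those of Ly6c1, Nt5e, Plk2, Maff, Irs2, Emb, Fam174b, Klhl2, Cap2 and Lxn.

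**Figure D5:**
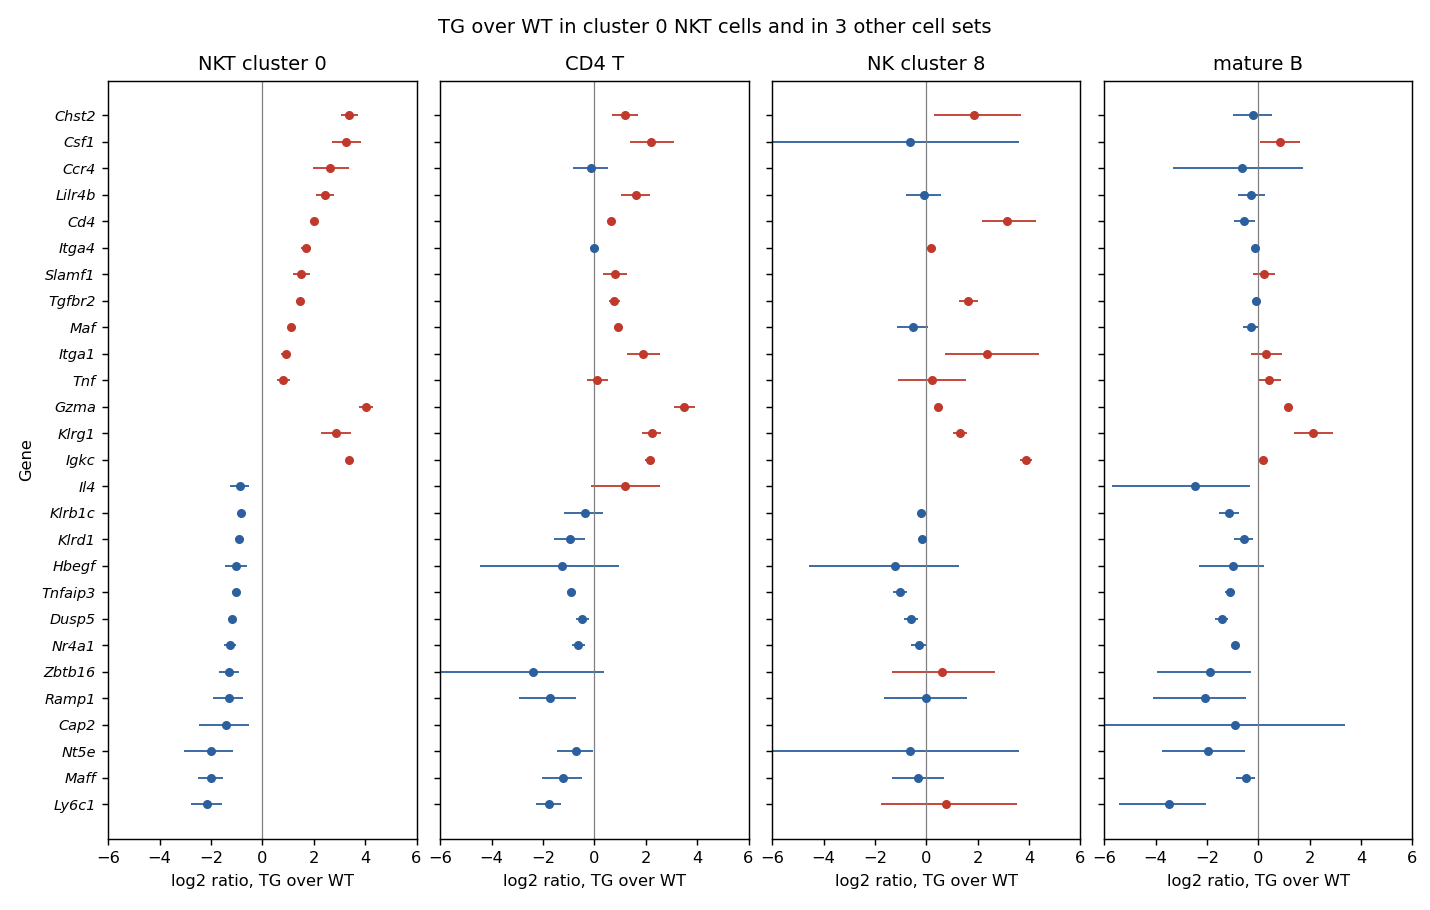
Log2 ratio of TG over WT (horizontal axis) for 27 named genes in cluster 0 NKT, CD4 T, NK cluster 8 and mature B cells, with bars the exact 95% interval, red above and blue below 0, intervals past the axis limits cut, and no point where a library had no UMI. Itga4 and Ccr4 are above 0 in cluster 0 and near or below 0 in CD4 T cells, whereas Tnfaip3 lies near -1 in all 4 cell sets.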

How the data were processed

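Immune cells of mouse liver were profiled on the BD Rhapsody platform with whole transcriptome and antibody (AbSeq) libraries in 2 pooled libraries. Reads had been aligned by the authors with STAR to mm10. The deposited counts are UMI counts per gene and per antibody and cell, error-corrected by the authors' pipeline and filtered to 11929 cells and 13528 genes. Genes seen in under 10 cells of either genotype had been set to 0 there, namely 611 genes in TG and 359 in WT cells. The authors also deposited natural log values, of which the antibody values (a centred ratio over the antibodies of a cell) were used, and the mitochondrial percent, genotype, cell type name and cluster of each cell. The cell type names were the authors', with markers checked here.

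UMIs were summed per cell set and library and scaled to CPM. A gene counted as higher or lower at 2-fold with at least 50 UMIs over the pair, in both libraries for cell type comparisons. Intervals were Poisson for CPM, Clopper-Pearson for shares, conditional binomial for ratios and Newcombe for differences of shares. The design has 1 library per genotype, so no test was run. Cells were thinned to 1000 UMIs, which left out none of the cells compared. Doublets were kept. Scrublet marked 39 TG cells (0.839%) and 238 WT cells (3.27%), 1 and 6 of them in cluster 0. Named genes were those of 29 gene lists and the 10 highest and 10 lowest ratios with at least 100 UMIs over the pair and 10 in each profile. The members and the lists were chosen with earlier results of these data known. The split of WT cells by CD4 protein was added after the data were seen. Alternatives were other scalings (TMM), weights, minimum UMIs, doublets or cells with other cells' UMIs left out, and other reference cells. Scripts used Python 3.11.15, numpy 2.4.6, scipy 1.17.1, pandas 2.3.3, scanpy 1.11.5, R 4.3.3 and edgeR 4.0.16 (TMM factors only), and were tested on simulated data. Some items are not reported here. Sequences came from GENCODE transcripts of GRCm38.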

Additional observations from a re-analysis of the deposited data

How the results depend on the processing

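No paired analysis was possible because each genotype is a single library and no test was made. Counts of genes past 2-fold moved with the minimum UMIs and with the cells kept. Over CD4 T cells, the 177 higher and 94 lower genes became 80 and 35 with cells thinned to 1000 UMIs, 28 and 13 without cells holding 2 or more B cell or myeloid UMIs, 327 and 260 with a minimum of 10 UMIs, and 70 and 27 with 200. Over NK cells, the 140 higher and 225 lower genes became 64 and 123 when thinned, 33 and 79 without such cells, and 304 and 413, or 63 and 99, with these minimums, while NK cluster 8 alone gave 262 higher and 194 lower. Between TG and WT cells, the 179 higher genes became 101 when thinned, of which 46 were shared, 379 without such cells (60 shared), and 630 or 47 with the minimums. The 125 lower genes became 163 when thinned (25 shared), 859 without such cells (53 shared), and 480 or 29. Leaving out such cells left 59 TG cells of cluster 0. The ratios under the alternatives have no interval, and a few UMIs can decide those of genes at a low level. Sign changes were read only for a set of named genes, and only where both profiles held a UMI under the alternative. Of their log2 ratios past 2-fold, those that turned sign over CD4 T cells in the TG library were Iigp1, Trdc and Tnfrsf9. Iigp1 was at 0.27 and Trdc at -1.37 without cells holding B cell or myeloid UMIs, and Tnfrsf9 at 1.46 against CD4 T clusters 6 and 9. Over NK cells those that turned sign were Iigp1 at -0.21 when thinned (WT), and, against NK cluster 8, Csf1 at 1.26 and Itga1 at 4.39 (WT) and Maff at -0.16 (TG). Between genotypes they were Ifit3 at -0.61 without such cells and Eomes at 0.10 over all cells named nkt. The difference in share was -27.6 percentage points among T, NKT and NK cells. By share of antibody counts 16 antibodies were lower in TG cells, against none. Without thinning, the TG minus WT share of cells with a UMI was -10.3 points for Zbtb16, -7.60 for Il4 and 44.6 for Cd4. The causes were not tested. TMM scaling, leaving ribosomal protein and mitochondrial genes out of the totals, weighting cells equally and removing Scrublet doublets each kept every count within 1.5 times. Depth limits transcripts below about 2 CPM in TG cells.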

Other observations

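Within cluster 0, an Ifng UMI was no more frequent in cells with an Il4 UMI beyond counting error. Of the 55 TG cells with Il4, 50.9% (37.1 to 64.6) held Ifng, against 47.7% (42.3 to 53.1) of the other cells, and of the 422 WT cells 50.2% (45.4 to 55.1), against 47.6% (45.1 to 50.1). Cells with Il4 had a median of 4170 UMIs in TG and 2998.5 in WT mice, and the others 3796 and 2797.5, so cells with Il4 were also the deeper ones.

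The 43 TG and 246 WT cells named nkt outside cluster 0 held interferon-stimulated transcripts at a higher level. Isg15, a ubiquitin-like modifier induced by interferon, was at 238 and 349 CPM in TG and WT mice, against 52.6 and 54.8 CPM in cluster 0. Ifit3, an antiviral interferon-induced gene, was at 204 and 219.8 CPM, against 16.7 and 8.15 CPM. Zbtb16 was at 48.6 and 128 CPM in these cells, against 42.3 and 104 CPM in cluster 0.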
